A study of Mus musculus with 2 samples.

Results

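Interferon-stimulated genes were followed as a set of 35 mouse genes chosen by name: sensors of foreign nucleic acid, transcription factors of the interferon response, the ISG15 conjugation system, the IFIT and OAS families, interferon-induced GTPases and other antiviral effectors. MHC genes and chemokines were left out of the set. Of the 35 names, 34 stood among the 19059 genes measured, and all values below concern those 34. The symbol Mx2 was not among them. The samples were mouse pancreatic tumors of the KPC model grown orthotopically, that is, in the pancreas. Treatment was the solvent DMSO, or 10 mg/kg of EIPA. EIPA is an amiloride derivative that blocks macropinocytosis, the uptake of fluid in large vesicles. For each of the 2 samples, 4 flash-frozen tumors were pooled, dissociated, fixed and profiled with probe-based single-cell RNA sequencing. The labels used here give no strain, age, sex, duration of treatment or exact alleles, and pooling leaves no measure of the spread between tumors.

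The counts of both samples form 1 matrix with 2 libraries, which hold 12337 cell barcodes in library 1 and 11945 in library 2. No label ties a library number to a treatment, so every comparison is library 2 over library 1, as an order of naming only. With 1 library per treatment, and many cells of each library but no replicate of it, no test was made. Intervals are exact Poisson 95% intervals on counts of unique molecular identifiers (UMIs), and they cover counting error only. Total UMIs were 203459556 and 185474400, with medians of 11695 and 10756 per barcode, and 225 barcode sequences occurred in both libraries. After filters and doublet removal 11115 and 10785 cells remained, and the members made up 0.0937% and 0.105% of their UMIs.

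Interferons are secreted proteins that signal to the cell that makes them and to its neighbors. Type I interferons act through the receptor chains Ifnar1 and Ifnar2 and the kinases Jak1 and Tyk2, and the signal ends in a complex of Stat2 and Irf9 that binds the interferon-stimulated response element. Interferon gamma, made mainly by T cells and NK cells, acts through Ifngr1 and Ifngr2, and its signal reaches the gamma-activated site. IFIT, OAS and ISG15 genes are best known as targets of type I interferon, and the guanylate-binding proteins, the immunity-related GTPases, Irf1 and Socs1 respond strongly to interferon gamma. Most members respond to both, so a level of RNA does not name the interferon.

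Several members lie in family arrays of the genome. In GRCm38 the 4 guanylate-binding proteins lie side by side on chromosome 3, from the start of Gbp5 at 142496934 to the end of Gbp2 at 142638008. The 3 IFIT genes lie on chromosome 19 between 34550550 and 34650009. Oas1a, Oas2 and Oas3 lie on chromosome 5 between 120730333 and 120907544, and Oasl1 and Oasl2 lie on the same chromosome. Near-identical copies such as Ifit3 and Ifit3b, or the Oas1 genes, may share probe signal, so values of these members are uncertain to that extent.

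The promoters are shown first because the members share regulatory letters that the choice of names did not use. RefSeq promoters of GRCm38.p6, from 250 bases before to 50 after a start, were found for 28 of the 34 members, as 33 promoters. On both strands, 17 of these 33 (51.5%) held the core of the interferon-stimulated response element, GAAA, any 2 bases and GAAA, against 3.44% of 32851 promoters in the table. The gamma-activated site TTCNNNGAA, which reads the same on both strands, was in 10 (30.3%) against 8.30% of all, and 6 (18.2%) held both against 0.454%. The letters are a match, not evidence of binding. The 250 bases before the start are printed for Gbp2 and for 5 of the 6 members with both motifs. Gbp2 is the well-measured member for which the libraries differ most in the keratin pool described below. Capitals mark all bases in a match to either motif, and each run reads 5′ to 3′ along the gene.
Gbp2 (chr3:142620413-142620662, plus strand): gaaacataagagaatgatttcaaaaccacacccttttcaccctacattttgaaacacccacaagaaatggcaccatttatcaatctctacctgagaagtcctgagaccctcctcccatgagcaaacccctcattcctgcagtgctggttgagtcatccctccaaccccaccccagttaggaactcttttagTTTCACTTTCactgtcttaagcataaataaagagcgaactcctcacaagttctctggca
Gbp5 (chr3:142496684-142496933, plus strand): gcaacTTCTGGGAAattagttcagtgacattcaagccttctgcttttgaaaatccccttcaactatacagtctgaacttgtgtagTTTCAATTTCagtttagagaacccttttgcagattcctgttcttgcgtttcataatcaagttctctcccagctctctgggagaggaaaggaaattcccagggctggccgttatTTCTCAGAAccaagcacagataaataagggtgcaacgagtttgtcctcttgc
Gbp7 (chr3:142530086-142530335, plus strand): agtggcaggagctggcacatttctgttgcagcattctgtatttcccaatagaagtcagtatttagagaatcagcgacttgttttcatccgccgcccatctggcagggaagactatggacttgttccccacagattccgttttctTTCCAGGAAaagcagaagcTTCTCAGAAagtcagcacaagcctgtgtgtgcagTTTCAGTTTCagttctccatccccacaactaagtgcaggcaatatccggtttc
Igtp (chr11:58199306-58199555, plus strand): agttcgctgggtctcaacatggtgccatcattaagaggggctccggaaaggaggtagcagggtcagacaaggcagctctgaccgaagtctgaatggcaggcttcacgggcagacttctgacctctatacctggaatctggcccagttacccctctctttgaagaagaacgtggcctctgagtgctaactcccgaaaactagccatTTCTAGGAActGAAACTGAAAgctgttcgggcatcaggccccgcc
Oas1a (chr5:120907526-120907775, minus strand): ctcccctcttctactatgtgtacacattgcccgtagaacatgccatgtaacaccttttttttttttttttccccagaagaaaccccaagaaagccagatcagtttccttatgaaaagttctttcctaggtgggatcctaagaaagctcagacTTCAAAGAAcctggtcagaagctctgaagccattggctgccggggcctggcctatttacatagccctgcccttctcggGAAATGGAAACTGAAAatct
Bst2 (chr8:71537473-71537722, minus strand): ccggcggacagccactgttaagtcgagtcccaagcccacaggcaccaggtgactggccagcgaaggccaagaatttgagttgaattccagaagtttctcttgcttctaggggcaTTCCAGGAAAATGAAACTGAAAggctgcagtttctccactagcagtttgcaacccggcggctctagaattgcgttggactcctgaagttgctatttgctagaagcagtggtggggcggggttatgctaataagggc
The 3 promoters of guanylate-binding proteins shown each have an interferon-stimulated response element match, and those of Gbp5 and Gbp7 also have 2 gamma-activated site matches each. In Bst2, a protein that tethers budding virus to the cell, the first response element match overlaps the gamma-activated site match.

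Short stretches around the matches are printed for 6 more members that recur in the results. They were picked after their values were seen.
Isg15 (chr4:156200867-156200904, minus strand): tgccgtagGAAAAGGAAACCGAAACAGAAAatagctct
Ifit1 (chr19:34640777-34640821, plus strand): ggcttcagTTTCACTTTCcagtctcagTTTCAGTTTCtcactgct
Ifit3 (chr19:34583365-34583424, plus strand): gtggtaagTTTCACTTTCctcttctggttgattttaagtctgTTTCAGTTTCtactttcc
Rsad2 (chr12:26456555-26456580, minus strand): ggtccaacTTTCATTTTCagaaaaca
Irgm1 (chr11:48871427-48871458, minus strand): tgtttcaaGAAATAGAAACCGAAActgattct
Irf1 (chr11:53769916-53769940, plus strand): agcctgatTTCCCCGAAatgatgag
Isg15 has 3 overlapping matches to the response element, Ifit1 and Ifit3 have 2 separate ones, Irgm1 has 2 overlapping ones and Rsad2 has 1. Irf1 has no match to the response element in this window and 1 to the gamma-activated site.

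Cells were grouped without the members and other listed interferon pathway genes. Related genes such as Ifit3b were not left out, so signal shared with a member could still shape the groups. The keratin pool comprised 15 clusters and held 9387 and 8624 cells. It unites epithelial tumor-like clusters with clusters that had too few markers for a name and under 20 CPM of Ptprc, the pan-leukocyte gene. No keratin level was required of the unnamed clusters. Krt8 ran from 769.5 CPM (cluster 6) to 3676 CPM (cluster 15) in the pool. It stood at 796 CPM in the macrophage-like and 1010 CPM in the T cell-like cluster, so keratin RNA alone does not set the pool apart. The other classes were macrophage- or monocyte-like (795 and 784 cells), fibroblast-like (371 and 450), T cell-like (118 and 325), dendritic-like (80 and 249), neutrophil-like (141 and 168), blood endothelial-like (146 and 126) and pericyte- or smooth muscle-like (61 and 51). An islet-like cluster of 16 and 8 cells was left out, since a class needed 30 cells per library. Of the dendritic-like clusters, cluster 22 (44 and 74 cells) rests on 3 markers, none of them among its 10 leading genes. Its median depth, 2600 and 3816 UMIs, was under that of the whole library, 10785 and 10026. The same held for the other non-tumor classes, such as macrophage-like cells at 3454 and 2790 UMIs. The endothelial-like cluster had Ccl21a, a lymphatic endothelial gene, among its leading genes.

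Levels are given as counts-per-million (CPM) of the UMIs of the class. Summed over the 34 members, the keratin pool was lowest of these 8 classes at 895 and 996 CPM, and dendritic-like cells were highest at 2143 and 2538 CPM. Between them stood fibroblast-like cells (1049 and 1145), pericyte-like cells (1277 and 1026), T cell-like cells (1291 and 1674), macrophage-like cells (1665 and 1926), endothelial-like cells (1863 and 1806) and neutrophil-like cells (2009 and 1833). RNA of 9 tumor-cell markers reached 20.0% to 57.5% of the pool level in the non-tumor classes, highest in neutrophil-like cells (45.8% and 57.5%) and T cell-like cells (54.5% and 46.8%). Its part in the levels of those classes was not tested. Irf8 alone made up 626 and 829 CPM of the dendritic-like sum, so the top rank of that class leans on this gene.

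**Figure D1:**
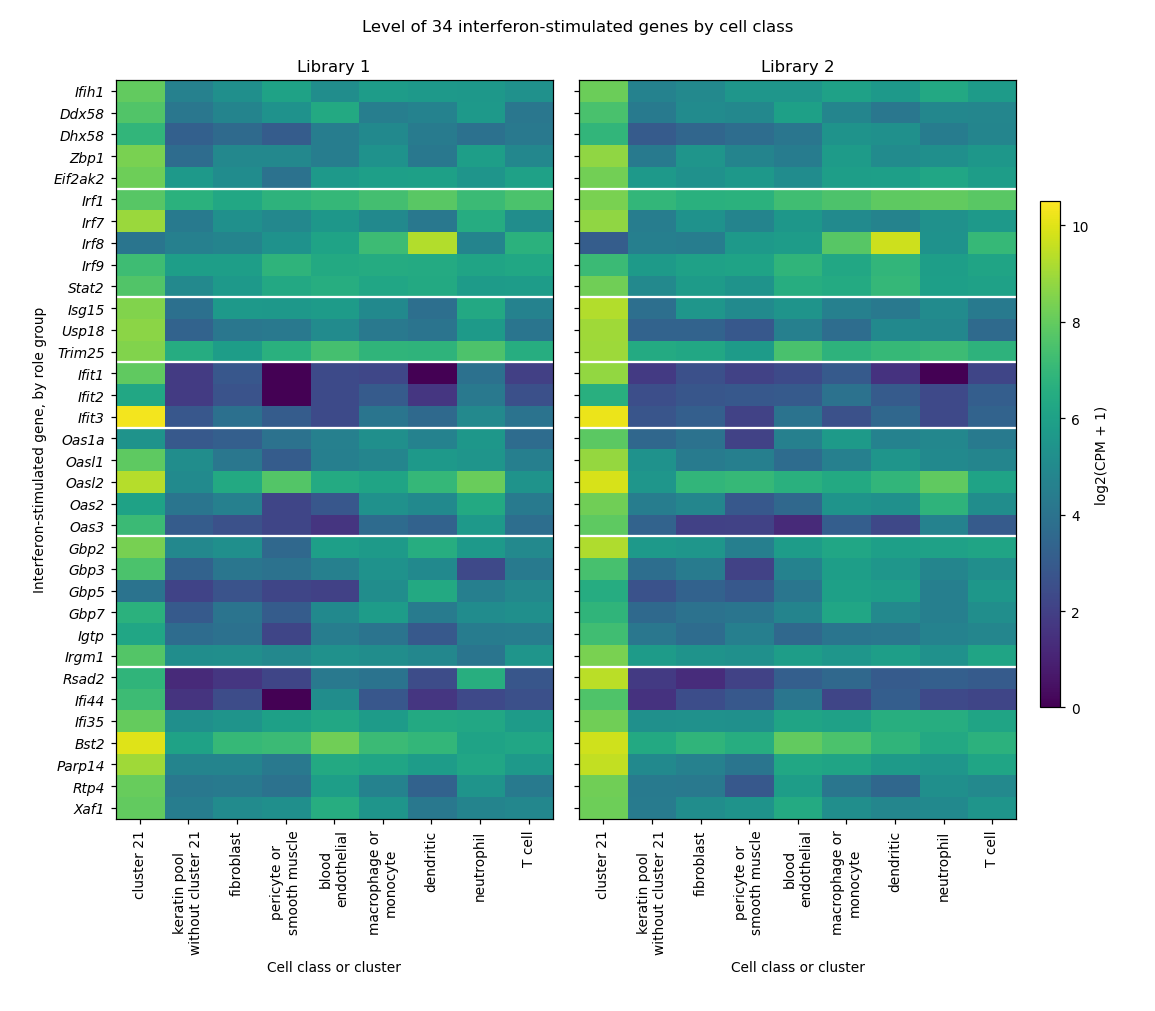
Level of each of the 34 members, as log2 of CPM plus 1, in cluster 21, the rest of the keratin pool and 7 other classes, 1 panel per library. White lines part the role groups. Cluster 21 is the brightest column for most members, while Irf8 peaks in dendritic-like cells at 626 and 829 CPM.

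Among the transcription factors, Irf8, which directs the making of dendritic cells and macrophages, followed that lineage. It stood at 626 and 829 CPM in dendritic-like cells, 145 and 219 in macrophage-like cells, 103 and 129 in T cell-like cells, and 22.99 and 21.95 in the keratin pool. Dendritic-like cells were apart from every other class in both libraries. Within them Irf8 was at 1113 and 1442 CPM in cluster 20, which is led by the cross-presenting marker Clec9a, and at 81.6 and 96.5 CPM in cluster 22. Irf1, the early activator, was broad, from 78.5 CPM in fibroblast-like cells to 221 in dendritic-like cells of library 1. Irf7, which amplifies type I interferon, ranged from 17.5 to 89.8 CPM in library 1 and from 22.1 to 49.4 CPM in library 2. Irf9 and Stat2, partners in the type I complex, were in all 8 classes, Irf9 at 52.1 CPM or above and Stat2 at 30.7 or above.

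Endothelial-like cells were the class with the most members at their highest level in both libraries, 6 of 34. By the mean of per-cell shares that count was 3, and neutrophil-like cells had 6. The 6 were Bst2 (301 and 251 CPM), Xaf1, a proapoptotic factor (92.7 and 85.2), the mono-ADP-ribosyltransferase Parp14 (82.3 and 75.7), the RNA sensor Ddx58, which encodes RIG-I (82.3 and 60.8), the chaperone Rtp4 (58.3 and 56.8) and Ifi44 (34.4 and 16.2). For Bst2 and Xaf1 the interval lay apart from that of the next class in both libraries. The keratin pool had Bst2 at 72.8 and 85.3 CPM. For Ddx58, Parp14, Rtp4 and Ifi44 the interval overlapped that of the next class in 1 library or both.

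Neutrophil-like cells led for 3 members of the OAS family, enzymes and relatives that activate RNA decay. Oasl2 stood at 277 and 242.5 CPM, Oas2 at 81.8 and 113 CPM, and Oas3 at 49.9 and 24.2 CPM. Oas2 and Oas3 were apart from the next class in both libraries. Oasl2 was not in library 1, where pericyte-like cells followed at 206 CPM (156 to 267). Neutrophil-like cells are shallow, with medians of 1216 and 1096.5 UMIs. Macrophage-like cells led for Dhx58, a regulator of RNA sensing (30.9 and 41.3 CPM), and for Gbp3 (39.6 and 57.3) and Gbp7 (54.7 and 73.3). Dendritic-like cells also led for Oasl1 and Ifi35, and T cell-like cells for the GTPases Igtp (20.9 and 27.5) and Irgm1 (43.8 and 69.8), each by less than the intervals. For the other 17 members the leading class differed between the libraries.

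Fibroblast-like cells had Isg15 at 48.6 and 45.1 CPM, against 16.2 and 15.5 CPM in the keratin pool, and Bst2 at 131 and 118 CPM. Their Oasl2, at 83.2 CPM (72.8 to 94.8) and 118 CPM (107 to 130), was above the 36.3 and 48.4 CPM of the pool. Trim25 went the other way, at 56.2 and 77.8 CPM against 91.2 and 85.3 CPM. In library 2 the Trim25 interval of fibroblast-like cells reached 87.96 CPM and so overlapped that of the pool.

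The IFIT genes encode proteins that bind foreign RNA. Ifit1, Ifit2 and Ifit3 summed to 23.5 and 19.1 CPM in the keratin pool and to 26.8 and 26.6 CPM in macrophage-like cells. Ifit1 and Ifit2 stayed under 20 CPM in all 8 classes of both libraries. Their RNA was unevenly spread between cells, as a small cluster of the keratin pool shows.

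Cluster 21 was that cluster, with 79 cells in library 1 and 43 in library 2, or 0.842% and 0.499% of the keratin pool. Its leading genes outside the members were Ifit3b, Cxcl10 and Cmpk2, themselves interferon-inducible. Member levels there are therefore a description, since the genes that set the cluster apart belong to the same response. The members summed to 9602 and 12856 CPM in cluster 21, against 828 and 952 CPM in the rest of the pool. Of the 34 members, 33 were higher there with intervals apart in both libraries, beside 3.6% of the 17314 genes with a UMI in the pool, at a median fold of 12.1 and 13.8 on CPM plus 1. The cluster gave 0.763% and 0.365% of the UMIs of the pool and 8.19% and 4.71% of its member UMIs.

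In library 1 the widest folds were those of Ifit3 and Ifit1. Ifit3 stood at 1267 and 1157 CPM in cluster 21 and at 6.30 and 5.79 CPM in the rest of the pool, a fold of 174 and 170.5. Ifit1 stood at 246 and 441 CPM against 2.53 and 2.42. Cluster 21 alone held 60.7% and 42.3% of all Ifit3 UMIs of the pool and 42.8% and 40.1% of those of Ifit1. Rsad2, which encodes the antiviral enzyme viperin, was at 117 and 679 CPM against 1.41 and 2.44, a fold of 198 in library 2, and Ifi44 at 146 and 192 CPM against 2.01 and 1.87.

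In the ISG15 system, Isg15, a ubiquitin-like protein, was at 364 and 618 CPM in cluster 21 against 13.5 and 13.3 CPM. Usp18, which removes ISG15 and dampens interferon signaling, was at 413 and 509 CPM against 9.15 and 9.25 CPM. Trim25, a ligase that activates RIG-I, rested on a higher base of 89.1 and 83.7 CPM and was at 361 and 500 CPM. Sensors were 5.59- to 26.05-fold higher in library 1 and 6.30- to 21.3-fold higher in library 2, with Zbp1, a sensor of Z-form nucleic acid and trigger of necroptosis, at the top of both ranges (338 and 432 CPM against 12.0 and 19.3). Bst2 reached 1027 and 845 CPM, Oasl2 641 and 943 CPM, Parp14 519 and 746 CPM, and Irf7 484 and 435 CPM.

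Other members differed less. Irf1 was 2.08- and 2.75-fold higher in cluster 21, and Irf9 2.52- and 2.74-fold. Irf8 was the exception among the 34, at 15.9 and 7.54 CPM against 23.04 and 22.003 CPM in the rest. The GTPases ranged from 3.70-fold (Gbp5, library 1, 18 UMIs) to 18.8-fold (Gbp3, library 1).

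Cluster 21 was among the pool clusters with too few markers for a name. Its Ptprc was at 8.69 CPM, near the 4.33 to 8.38 CPM of the other keratin clusters. Krt8 was at 1234 CPM, against 769.5 to 3676 CPM in the other keratin clusters and 1010 CPM in the T cell-like cluster. The 10 tumor-cell markers summed to 3634 and 5565 CPM, under the 6924 and 6995 CPM of the rest. The 11 macrophage markers summed to 898 and 400 CPM against 461 and 471 CPM, and the 10 T cell markers to 6.69 and 32.0 CPM against 6.16 and 12.3 CPM. The part of such RNA in the cluster was not tested. The same cells came together in the 4 other groupings tried, which placed 107 to 122 of the 122 cells in 1 cluster with the same 3 leading genes. Those at another resolution used the same links between cells, and none of the 4 left out these 3 genes. The recovery of the cluster is therefore a weak check. With the members kept among the clustering genes, that cluster grew to 193 and 150 cells.

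To compare cells of unequal depth, each cell was thinned to 2000 UMIs and its members with at least 1 UMI were counted. Cluster 21 averaged 13.04 and 14.8 of 34 members, and the rest of the pool 1.497 and 1.80. Without thinning the means were 25.4 and 26.5 against 6.92 and 7.71. Every thinned cell of cluster 21 had at least 1 member, while 28.4% and 24.2% of the rest had none. Thinned means were 1.87 and 2.22 in fibroblast-like cells, 3.07 and 3.31 in endothelial-like cells, 3.38 and 3.54 in macrophage-like cells and 3.50 and 3.53 in dendritic-like cells. Thinning left out 88 of 141 and 112 of 168 neutrophil-like cells and 264 and 292 macrophage-like cells, which held fewer UMIs.

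**Figure D2:**
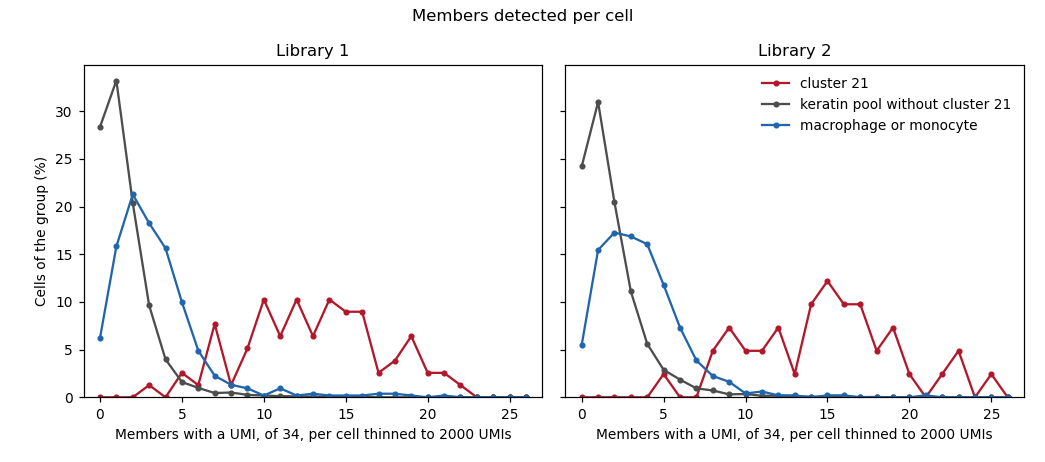
Share of cells (percent, y axis) by the number of members with a UMI after thinning to 2000 UMIs (x axis), for cluster 21, the rest of the keratin pool and macrophage-like cells, 1 panel per library. Cluster 21 averages 13.04 and 14.8 members, and the rest of the pool 1.497 and 1.80. The ranges overlap: the rest reaches 16 and 18 members, with 0.617% and 0.978% of its cells at 10 or more.

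Cells with at least 10 members after thinning were rare, 144 in library 1 and 135 in library 2 over all classes. Cluster 21 held 63 and 35 of them, and the other keratin clusters 55 and 79. The latter lay mainly in cluster 2 (14 and 30 cells) and cluster 5 (14 and 13 cells). Macrophage-like cells gave 18 and 10, of 531 and 492 thinned cells. Neutrophil-like and pericyte-like cells gave 0 in both libraries, but of only 53 and 56 and of 41 and 39 thinned cells. Clusters 9, 14, 15 and 18 also gave 0. These clusters held 963 and 151, 180 and 604, 40 and 557, and 103 and 115 thinned cells.

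The other 14 keratin clusters also differed in their summed member level. Cluster 7, led by the immunoglobulin transporter Pigr, Mmp7 and Reg3b, was highest at 1379 and 1577 CPM. The next cluster was not the same in both libraries: cluster 11 (Mt2, Mt1, Crisp1) at 1253 and 1002 CPM came second in library 1, and cluster 2 (Rgs11, Kif12, Coro6) at 1040 and 1333 CPM in library 2. Cluster 3, led by C3, C1s1 and Muc5ac, was at 1114 and 1267 CPM. Cluster 14 (Il11, Insm1, Slc14a1) was lowest in both, at 443 and 464 CPM. Cluster 15 (Apoc2, Mmp10, Ggct) was at 465 and 539 CPM, cluster 9 (Chsy3, Megf10, Mcpt8) at 560 and 553 CPM and cluster 12 (Aldh1l2, Muc5b, Plin4) at 616 and 516 CPM. GTPases summed to 225 and 277 CPM in cluster 7 and to 39.4 and 37.3 CPM in cluster 14. Cluster 5, led by Cited1, Adm and Hspa1a, had the highest IFIT sum after cluster 21 in library 2, 49.9 CPM, but 3 cells held 74.1% of its Ifit3 UMIs there.

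**Figure D3:**
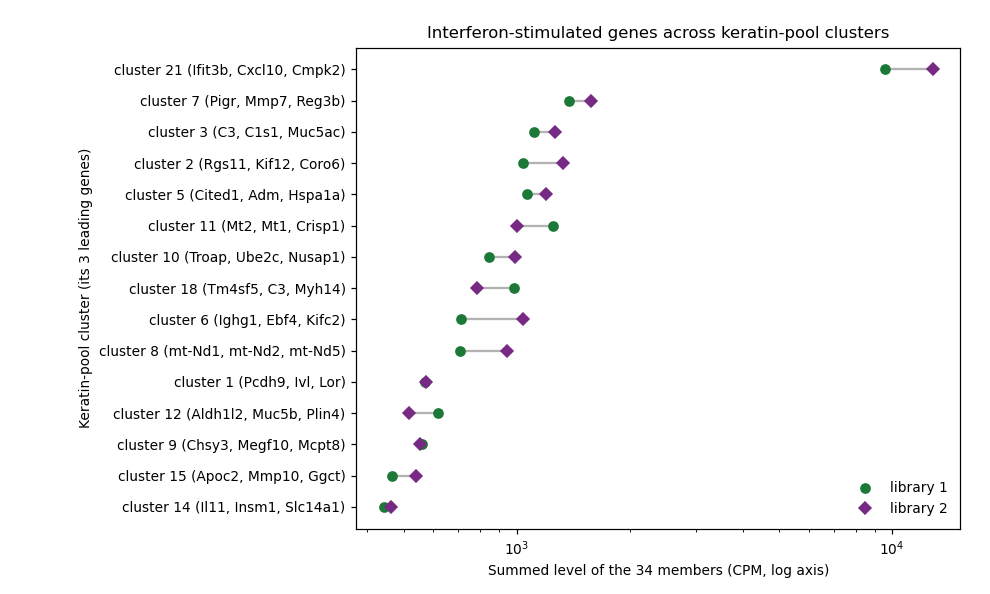
Summed level of the 34 members (CPM, log axis) in each of the 15 keratin-pool clusters, with circles for library 1 and diamonds for library 2 and each cluster's 3 leading genes. Cluster 21 stands at 9602 and 12856 CPM, and no other cluster passes 1577 CPM.

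The libraries were then compared within each class. A member was called when it differed by at least 1.5-fold on CPM plus 1 with intervals apart and at least 20 CPM in 1 library. In the keratin pool 19 of 34 members passed the 20 CPM floor, with a median log2 ratio of 0.04 against 0.002 for all 8520 genes past it. The call found 1 member higher in library 2 and 0 lower, where 2.0% of all genes were called higher and 0.833% lower. The called member was Gbp2, at 31.5 CPM (30.6 to 32.4) in library 1 and 53.0 CPM (51.8 to 54.2) in library 2, a log2 ratio of 0.73. It was detected in 19.7% and 27.6% of pool cells.

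The role groups of the pool did not move alike. All 6 GTPases were above 0, from 0.38 (Gbp3) to 0.73 (Gbp2), and summed to 101 and 155 CPM. Irgm1, which targets membranes around ingested microbes, stood at 35.7 and 53.9 CPM (0.58), just under the 1.5-fold limit. Gbp3, Gbp5, Gbp7 and Igtp stayed under 20 CPM. All 5 OAS genes were also above 0, from 0.21 to 0.62, and the 3 past the floor lay between 0.21 and 0.40. The 3 ISG15 system genes lay between -0.13 and -0.06, but only Trim25 (-0.10) passed the floor. Without cluster 21 these 3 genes lay between -0.09 and 0.01. The 5 transcription factors lay between -0.17 (Irf9) and 0.22 (Irf1, 105 and 123 CPM). The IFIT genes differed among themselves. Ifit3 was at 15.9 and 10.0 CPM in the whole pool (-0.62) and at 6.30 and 5.79 CPM without cluster 21 (-0.10), while Ifit2 was at 2.59 and 4.70 CPM without it. Without that cluster 2 members were called higher, Gbp2 (29.3 and 51.0 CPM) and Irgm1 (34.4 and 52.9 CPM), beside 2.0% of all genes.

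T cell-like cells had the highest list median of the 8 classes, 0.49, with 22 of 26 members past the floor above 0. Over all genes past the floor their median was 0.043, within a range of -0.074 (macrophage-like) to 0.099 (endothelial-like). The T cell-like list median was not the highest in every setting. It was 0.26 after thinning, against 0.35 in fibroblast-like cells, and 0.20 with no doublet removal, against 0.39 in endothelial-like cells. Only Gbp2 was called, at 29.8 CPM (20.1 to 42.6) and 69.1 CPM (56.1 to 84.2), beside 5.19% of all genes called higher and 2.88% lower. It rested on 30 and 98 UMIs, and 0 members were called after thinning to 2000 UMIs. GTPases summed to 179 and 284 CPM and OAS genes to 106 and 154 CPM. The median depth of these cells was 2824.5 and 1838 UMIs.

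In macrophage-like cells the median was 0.23, with 18 of 26 members above 0. Irf8 was called higher, at 145 CPM (135 to 156) and 219 CPM (204 to 235), and so was Gbp5, a guanylate-binding protein that promotes inflammasome assembly, at 34.04 CPM (29.3 to 39.3) and 61.1 CPM (53.4 to 69.6). In this class 6.45% of all genes were called higher and 6.91% lower, and 0 members were called lower. After thinning to 2000 UMIs 0 members were called higher and 2 lower, and the median was -0.039. All 6 GTPases were above 0, summing to 230 and 325 CPM. The 3 ISG15 system genes were below 0, with Isg15 at 30.5 and 23.1 CPM. Ifit3 was at 16.0 CPM (12.8 to 19.8) and 5.16 CPM (3.11 to 8.06), under the floor.

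Neutrophil-like cells carried the only lower calls among the classes. Their median was -0.19, with 15 of 31 members above 0. Lower in library 2 were Rsad2 (93.8 CPM on 47 UMIs and 8.08 CPM on 4 UMIs), Ifit3 (29.9 CPM on 15 UMIs and 4.04 CPM on 2 UMIs), Isg15 (79.8 and 32.3 CPM, -1.28) and Irf7 (89.8 and 38.4 CPM, -1.20). Irf1 was called higher, at 144 and 253 CPM (0.81). Of all genes 2.74% were called higher and 2.17% lower. In library 1, 3 cells held 72.3% of the Rsad2 UMIs and 45.0% of those of Isg15. In cells thinned to 2000 UMIs no member was called, and Isg15 was at 0.24. Without the 3 highest cells per member and library 1 member was called lower.

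No member was called in the other 4 classes. The median was 0.14 in fibroblast-like cells, where 3.06% of all genes were called higher and 3.75% lower, and -0.19 in pericyte-like cells (1.19% and 1.16%). In dendritic-like cells it was 0.23 (1.81% and 2.15%), and -0.0041 after thinning. Before thinning, all 3 ISG15 genes and all 5 transcription factors were above 0, with Isg15 under the floor. Leaving out cluster 22 kept 36 and 175 cells. There Isg15 was at -0.69 and Trim25 at -0.007, while Usp18 and the 5 transcription factors stayed above 0. Without cluster 22 Stat2 was called higher (69.0 and 143 CPM), beside 1.85% of all genes. Gbp2 (127 and 63.5 CPM) and Gbp5 (134 and 69.2 CPM) were called lower, beside 2.88%. Gbp2 stood at 78.8 and 54.2 CPM in cluster 20, where it was not called, and at 256 and 96.7 CPM in cluster 24, which held 12 and 34 cells. In endothelial-like cells the median was -0.12 (3.85% and 1.8%). With no doublet removal the medians changed sign in fibroblast-like (-0.10), pericyte-like (0.10) and endothelial-like cells (0.39). In endothelial-like cells 8 members were then called higher, and the share of all genes called in that setting is not given here. TMM scaling shifted endothelial-like cells by -0.11 on the log2 scale. Among all genes called there in either direction, it moved the share called higher from 68.1% to 43.5%. TMM scaling moved that share of called genes from 48.3% to 58.4% in macrophage-like cells and from 55.8% to 44.9% in neutrophil-like cells.

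**Figure D4:**
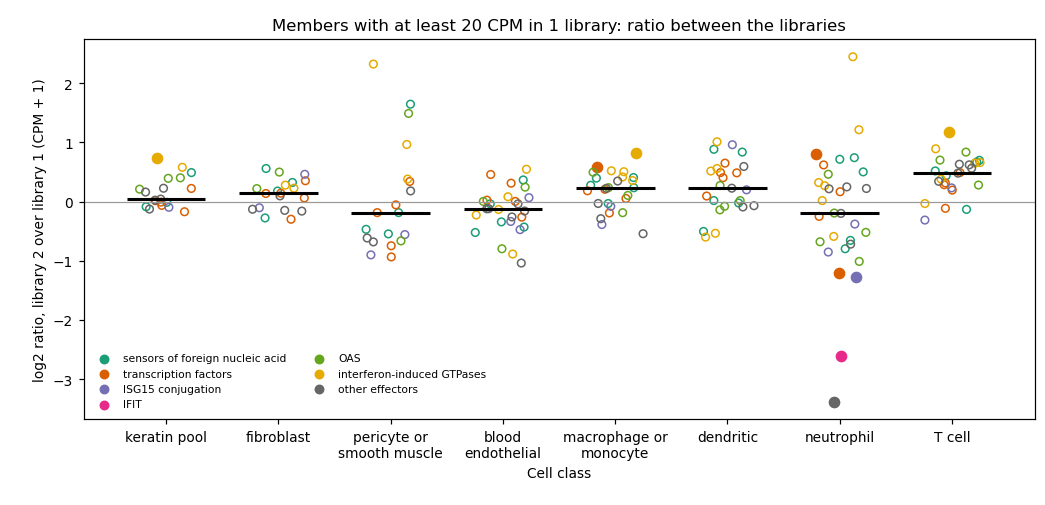
Log2 ratio of library 2 over library 1 (CPM plus 1) for each member with at least 20 CPM in 1 library, by class and colored by role. Filled points were called and bars are medians. The T cell-like median of 0.49 is the highest, and the 4 lower calls are all in neutrophil-like cells.

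Within the keratin pool the libraries held the clusters in different shares, so the comparison was repeated inside each cluster. Over the 14 clusters other than cluster 21, members passed the floor in 227 member and cluster pairs. Of these pairs 38 were called higher and 10 lower in library 2, where 2.9% of all gene and cluster pairs were called higher and 2.74% lower. Clusters share their library, so they are not independent of each other. GTPases gave 12 of the higher calls and 0 lower calls in 27 pairs, and OAS genes 9 and 0 in 34 pairs. ISG15 system genes gave 1 higher and 3 lower in 20 pairs.

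Irgm1 was called most often, in 6 of the 12 clusters where it passed the floor (clusters 2, 3, 6, 8, 10 and 11), and was above 0 in 10. Zbp1 was called in 4 of 7 and above 0 in 7 of 7, and Oasl2 in 4 of 12. Gbp2 was called in 3 of 8, most in cluster 8 (14.3 and 49.1 CPM, log2 1.72) and cluster 10, led by the mitotic genes Troap, Ube2c and Nusap1 (34.5 and 98.2 CPM, 1.48). In cluster 10, 3 cells held 40.1% of the library 1 UMIs of Gbp2. Irf1 was called in 3 of 14 and above 0 in 12. Eif2ak2, the kinase PKR that stops translation on double-stranded RNA, was above 0 in 3 of 14, as was Irf9.

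Cluster 6 had the most higher calls, 9, beside 1.83% of all genes, and 1 lower call, Irf8, beside 1.0%. This cluster, led by Ighg1, Ebf4 and Kifc2, had too few markers for a name. Its Krt8, at 769.5 CPM, was the lowest of the pool clusters. That was under the 796 CPM of the macrophage-like and the 1010 CPM of the T cell-like cluster. Its Krt18, at 943 CPM, was above their 731 and 871 CPM. Whether its cells are tumor cells was not tested. Its median depths were 3824 and 2765 UMIs. Its Oasl2 was at 26.996 and 59.3 CPM, Ifih1, which encodes the sensor MDA5, at 16.1 and 36.2 CPM, and Bst2 at 30.7 and 57.0 CPM. Cluster 2 had 8 higher calls beside 1.04%, and all 22 of its members past the floor were above 0. Among them Oas2 stood at 38.7 and 65.6 CPM and Zbp1 at 20.5 and 36.7 CPM. Cluster 8 had 6 higher calls beside 5.77%, cluster 5 had 4 beside 1.51%, and clusters 3 and 10 had 3 each beside 2.34% and 1.82%. Cluster 8, led by the mitochondrial genes mt-Nd1, mt-Nd2 and mt-Nd5, also had too few markers for a name. Its median depth was 10720 and 5179 UMIs. In cluster 18 (129 and 155 cells) 1 of 16 members past the floor was above 0, at a median of -0.54, and 0 were called. In cluster 5 the calls of Rsad2 and Ifit3 rested on few cells, with 83.1% and 74.1% of their library 2 UMIs in 3 cells.

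Cluster 11, led by the metallothioneins Mt2 and Mt1, had calls in both directions. It held 97 cells in library 1 and 915 in library 2. Lower in library 2 were 8 members beside 2.99% of all genes: Ifit3 (30.7 and 4.33 CPM), Isg15 (60.9 and 11.3), Irf7 (53.9 and 13.8), Usp18 (27.2 and 8.60), Xaf1 (54.5 and 21.3), Rtp4 (53.9 and 22.1), Ifih1 (37.7 and 19.9) and Trim25 (110 and 72.2). Higher were 3 members beside 3.09%: Igtp (6.38 and 22.5 CPM), Irf1 (74.2 and 141 CPM) and Irgm1 (40.6 and 66.5 CPM). In library 1, 3 cells held 52.8% of the Ifit3 UMIs, 34.04% of those of Usp18 and 36.4% of those of Igtp.

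Inside cluster 21, 12 members were called higher in library 2 and none lower, beside 5.14% of all genes called higher. The widest were Rsad2 (117 and 679 CPM, log2 2.52), Gbp5 (15.1 and 90.5, 2.51), Oas1a (41.0 and 228, 2.45) and Oas2 (64.4 and 294, 2.17). Ifit3, Bst2 and Irf7 differed less, at 1267 and 1157, 1027 and 845, and 484 and 435 CPM. With 79 and 43 cells, the 3 highest cells held between 24.6% and 43.8% of the library 2 UMIs of the called members other than Rsad2, at 44.2%. When library 2 was weighted to the cluster mix of library 1, the pool median was 0.16 and Gbp2 stood at 0.55, with 0 members called.

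**Figure D5:**
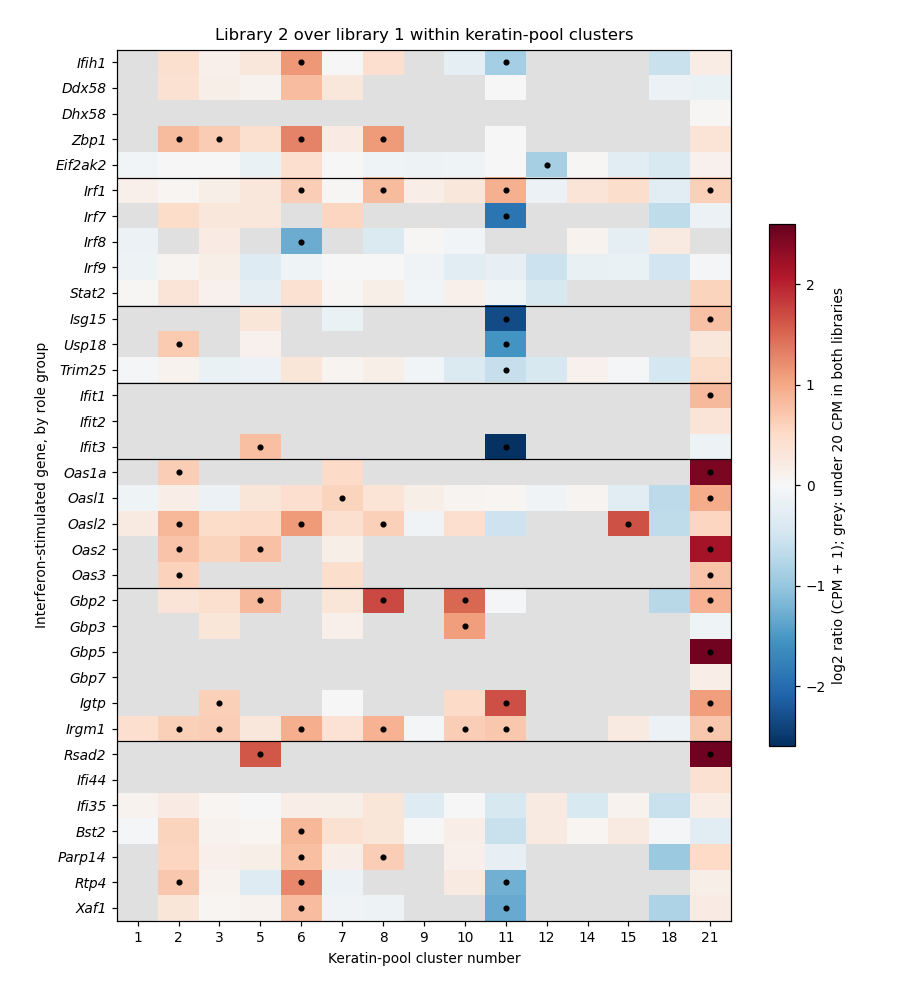
Log2 ratio of library 2 over library 1 (color) for each member (rows, by role) in each of the 15 keratin-pool clusters (columns), with a dot for each call and grey where a member was under 20 CPM in both libraries. Irgm1 is dotted in 6 clusters and in cluster 21, and cluster 11 holds 8 of the 10 lower calls, in blue.

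Of 40 names in a list of other interferon pathway genes, 35 were measured. Among ligands, Ifng was found in T cell-like cells at 1.99 CPM (0.241 to 7.19, 2 UMIs) and 16.2 CPM (10.3 to 24.3, 23 UMIs), and at 1.35 CPM or less in the other classes. Ifnb1 was at 2.72 CPM (1.30 to 4.99, 10 UMIs) in macrophage-like cells of library 2, where 1 cell held all 10, and had at most 3 UMIs in any other class. Both are under the 20 CPM floor and were named after their values were seen. The receptor chains were broad, with Ifngr1 at 275 and 250 CPM and Ifnar1 at 123 and 111 CPM in the pool. In cluster 21 Ifnar1 stood at 131 CPM (112 to 154) and 107 CPM (81.4 to 139), against 123 and 111 in the rest of the pool. Ifngr1 was lower there in library 1, at 207 CPM (182 to 234) against 275, and stood at 238 CPM (198 to 283) against 250 in library 2.

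In both libraries 8 of the 35 pathway genes had intervals in cluster 21 apart above the rest of the pool, beside the 3.6% of all genes, among them Socs1, Adar, Samhd1, Tlr3, Ikbke, Irf2 and Myd88. Socs1 stood at 49.4 and 271 CPM against 15.5 and 33.0. Samhd1, which depletes nucleotides that viruses need, was at 229 and 311 CPM against 38.7 and 47.99, and the RNA editor Adar at 298 and 336 CPM against 98.7 and 96.7. The DNA sensor Cgas was at 0.598 and 0.552 CPM in the rest of the pool and at 18.8 and 32.9 CPM in macrophage-like cells.

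Socs1, which switches off interferon signaling by blocking the JAK kinases, was the pathway gene that differed between the libraries in most places. It stood at 15.7 CPM (15.1 to 16.4) and 33.8 CPM (32.9 to 34.8) in the keratin pool, a log2 ratio of 1.06. It was the 1 pathway gene called there, beside 2.0% of all genes called higher. Within the pool it was called higher in 12 of 15 clusters, which share their library. In those 12 clusters between 0.487% and 7.65% of all genes were called higher. Socs1 was also called higher in T cell-like cells (47.7 and 116 CPM) and macrophage-like cells (23.2 and 43.99 CPM). The same held in dendritic-like cells (147 and 227 CPM, beside 1.81% of all genes) and neutrophil-like cells (21.9 and 86.9 CPM, beside 2.74%). T cell-like cells had 6 pathway calls among 22 genes past the floor, beside the 5.19% of all genes called higher, among them Socs1, Tmem173, Ikbke, Irf5 and Jak2 (158 and 254 CPM). Macrophage-like cells had 5 among 24, beside 6.45%: Socs1, Cgas, Tlr9, Samhd1 (103 and 158 CPM) and Irf5 (193 and 292 CPM). No pathway gene was called lower in any of the 8 classes, where between 0.833% and 6.91% of all genes were.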

How the data were processed

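The authors deposited 1 matrix of raw UMI counts, made with Cell Ranger 8.0.0 on mm10, per the submitters' processing notes. Cells with at least 200 genes, 500 UMIs and under 20% mitochondrial UMIs were kept (5 and 23 removed). Scrublet's automatic threshold marked 0 doublets, so 1217 and 1137 cells were removed by rank at 0.8% per 1000 cells. Clusters (scanpy 1.11.5, leidenalg 0.10.2, 3000 variable genes, 50 components, 15 neighbors, resolution 1) left out 69 members and pathway genes. Classes are named from at least 3 markers, and pooling the keratin clusters was decided after seeing them. Class sums of each library were divided by their total to give CPM, and a class was compared with at least 30 cells per library. Calls needed 1.5-fold on CPM plus 1, exact Poisson 95% intervals apart and 20 CPM in 1 library.

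In each class the members called were named first, then role groups by range. Pathway genes were named from 20 CPM. Leading genes of a cluster are the 3 highest folds among genes of at least 50 CPM outside the members. Members and lists were chosen with earlier results of these data known. Probes differ in efficiency, so levels are not compared between genes. Promoters are from RefSeq, GRCm38.p6. TMM and median-of-ratios factors came from edgeR 4.0.16 and R 4.3.3, as alternatives. Other alternatives were the added CPM, the floor, doublets, thinning, resolution, clustering with members, tumor RNA subtraction and removal of the top cells. The computation was tested on simulated data. Depth limits neutrophil-like cells most, at medians of 1216 and 1096.5 UMIs. Some pathway genes are not reported here.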

Additional observations from a re-analysis of the deposited data

How the results depend on the processing

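No paired analysis was possible because there is 1 library per treatment and no replicate. Values below are for library 2 over library 1, and the cause of each shift was not tested. Leaving out cluster 21, weighting to the cluster mix of library 1 and leaving out cluster 22 were chosen after seeing the data. Counts of calls below are given without the share of all genes called in each setting. Of the alternative values of the summary results, 263 stayed within their limits, 53 moved and 7 changed sign. Of those of single called members, 89 kept the call, 19 lost it and 1 changed sign.

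In the keratin pool the count of higher members (1) was 2 with 0.1 CPM added, 3 with no floor, 4 after thinning to 2000 UMIs, 2 without the 3 top cells, 2 without cluster 21 and 0 when weighted. The lower count (0) was 1 with no floor. In fibroblast-like cells the median log2 ratio of 0.14 was 0.35 after thinning and -0.10 with no doublet removal. Higher calls (0) were 2 without the top cells, 1 with tumor RNA subtracted and 1 with no doublet removal, which gave 2 lower calls. With no doublet removal the pericyte-like median of -0.19 was 0.10 with 1 higher call, and the endothelial-like median of -0.12 was 0.39 with 8 higher calls. Thinning gave 1 higher call in endothelial-like cells.

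In macrophage-like cells the median of 0.23 was -0.039 after thinning. Higher calls (2) were 1 with 10 CPM added, 0 after thinning and 1 with no doublet removal. Lower calls (0) were 1 with no floor, 2 after thinning, 1 without the top cells and 1 with no doublet removal. In dendritic-like cells the median of 0.23 was -0.0041 after thinning and 0.56 without the top cells. Higher calls (0) were 2 after thinning, 1 at resolution 2, 3 with no doublet removal and 1 without cluster 22. Lower calls (0) were 1 after thinning, 1 with tumor RNA subtracted, 1 in clusters made with the members and 2 without cluster 22.

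In neutrophil-like cells the higher count (1) was 0 after thinning and 0 with no doublet removal. The lower count (4) was 0 after thinning, 1 without the top cells and 1 in clusters made with the members. Isg15 went from -1.28 to 0.24 after thinning. In T cell-like cells the median of 0.49 was 0.26 after thinning, 0.68 without the top cells, 0.72 with tumor RNA subtracted and 0.20 with no doublet removal. The higher count (1) was 0 after thinning, 4 without the top cells, 2 at resolution 2 and 2 in clusters made with the members.

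The ratio of mean members per cell was 1.31 in endothelial-like cells with no doublet removal (1.08 as reported). Thinned to 1000 UMIs it was 0.80 in neutrophil-like cells (1.13) and 0.999 in T cell-like cells (1.19). Counts of members highest in a class in both libraries, by the mean of per-cell shares, were 3 in endothelial-like cells (6), 1 in macrophage-like cells (3), 1 in dendritic-like cells (3), 6 in neutrophil-like cells (3) and 0 in T cell-like cells (2). With no doublet removal they were 1 in pericyte-like cells (0), 5 in dendritic-like cells (3) and 0 in T cell-like cells (2).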
